A study of Mus musculus with 24 samples.

Results

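The postsynaptic density scaffold and adhesion genes were followed in medial prefrontal cortex (mPFC) RNA of mouse offspring at postnatal day 21 (P21). The gene group was chosen by name, with earlier results of these data known. It holds 39 gene symbols, all of which were present among the 24972 genes of each expression table, and all 39 passed the filter on low values in males and in females. They are described by role as 4 membrane-associated guanylate kinase (MAGUK) scaffolds, 4 SAPAP scaffolds, 5 Shank and Homer scaffolds, the 2 calcium/calmodulin-dependent kinase II (CaMKII) genes Camk2a and Camk2b with Nrgn, 5 GTPase regulators and actin adaptors, 3 auxiliary subunits of AMPA receptors, 3 neuroligins, 4 LRRTM, 3 NGL and 5 Slitrk adhesion proteins.

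The postsynaptic density is the protein layer under the membrane of excitatory synapses. MAGUK proteins such as PSD-95 bind glutamate receptors there, SAPAP proteins link them to Shank, and Homer joins Shank to metabotropic glutamate receptors. Neuroligins, LRRTMs, NGLs and Slitrks cross the membrane and bind partners on the presynaptic side, and in the cortex of young mice these genes are used while synapses form and mature.

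Dams were C57BL/6J females mated with DBA/2J males, so the offspring were wild-type B6D2F1/J hybrids. Dams received daily subcutaneous morphine (MO), raised over the first days to 10 mg/kg, or saline (SAL), from a week before mating until weaning at P21. Offspring were exposed only through the dam, before birth and through lactation, and small litters were combined after birth. Each of the 4 groups (SAL and MO males, SAL and MO females) held 6 libraries, every library from a separate animal. Per the study's methods 1 offspring of each sex was taken from a litter, so male and female libraries share litters, but which libraries are littermates is not given here. The male and female tables were normalized separately, and levels are therefore compared only within a sex.

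Values were the deposited DESeq2-normalized counts. Each library summed to between 14.7 and 16.0 (units of 1e6), and the spacing of the low values placed the reads behind a library at about 13.3 to 20.1 in the same units. No 2 libraries held the same values (highest correlation of 0.995). The library PFC1 (female MO) stood apart. Its 8 mature oligodendrocyte markers summed to 300997, against 30843 to 136143 in female SAL, and its 9 cortical glutamatergic neuron markers to 35190, against 44485 to 51746. Across the other 23 libraries the glutamatergic markers summed to 44485 to 54548, and no marker in the lists of 12 cell types was at 0 in every library. Female fold changes are given with and without PFC1. In the male SAL library PFC16 the 9 striatal projection neuron markers summed to 8400, against 3406 to 4019 in the other male SAL libraries.

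The 39 genes were abundant. Their median value was 2803 in males and 2606 in females, against 244 and 236 over all genes tested, and the median member stood at percentile 92.5 and 92.1. None was at 0 in any library. Together they held 1.24% to 1.52% of a library's normalized counts, with medians of 1.33% in male SAL, 1.36% in male MO, 1.37% in female SAL and 1.37% in female MO. These shares overlapped between MO and SAL in each sex. They rest largely on a few genes, as Camk2a, Camk2b and Nrgn made up 86504 of the summed 212086 in male SAL. The highest share was that of PFC1, where Camk2a was at 64546.

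Divided by the length of the longest annotated transcript (in kilobases, kb), the level in male SAL was highest for Nrgn, which encodes the calmodulin-binding protein neurogranin, at 22130.3 ± 2024 per kb (SD, n = 6). Camk2a, the alpha subunit of CaMKII, followed at 8542 ± 669 per kb and did not overlap Nrgn. Camk2b (2957 ± 107), Dlg4 (2826 ± 160.1) and Cnih2 (2719 ± 168) came next, and these neighbours did not differ beyond their SDs. Dlgap1 (2012 ± 46.8) led the SAPAP scaffolds. The median of the 39 genes was 569 per kb in male SAL and 546 in female SAL. Homer3 was lowest in both, at 35.9 ± 2.79 and 36.8 ± 6.45 per kb. By role, the median per kb in male SAL was 8542 for CaMKII and neurogranin, 1228 for SAPAP, 1045 for MAGUK, 759.8 for NGL, 611 for the GTPase regulators, 595 for the AMPA receptor subunits, 337 for LRRTM, 191 for Shank and Homer, 182 for Slitrk and 173 for neuroligins. This order depends on the isoform. With the shortest annotated transcript, Homer2 moved from 142 to 957 per kb and Camk2a from 8542 to 43364.

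**Figure D1:**
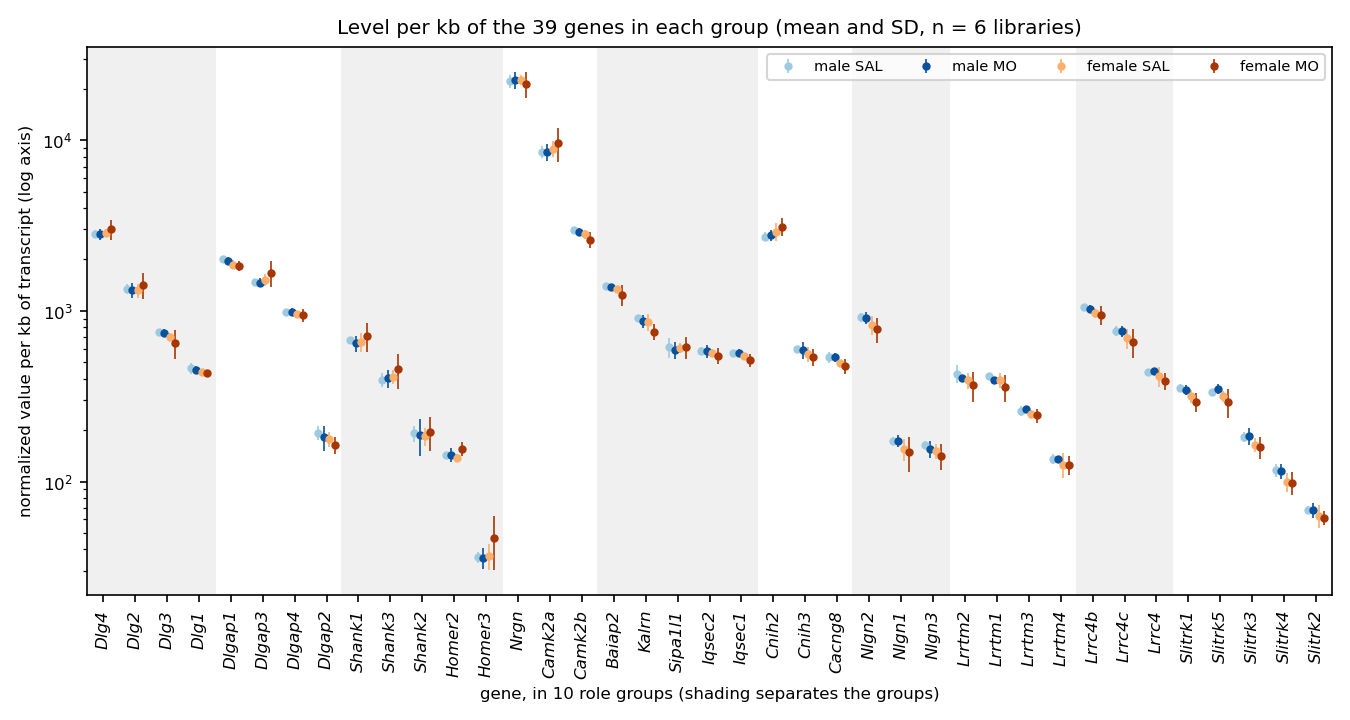
Level of each of the 39 genes per kilobase of its longest transcript (normalized counts per kb, log axis), grouped by role, with a point for the mean and a bar for the SD of the 6 libraries in each combination of sex and treatment. The 4 groups of a gene lie close together compared with the distance between Nrgn (22130.3 per kb in male SAL) and Homer3 (35.9 per kb).

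Whether perinatal MO was accompanied by other levels of these genes was tested within each sex. No member passed an adjusted p of 0.05 in males, in females, over both sexes or for the drug by sex interaction (limma, Benjamini-Hochberg adjustment over all genes tested), with or without PFC1, and neither did any other gene. At an unadjusted p under 0.05 the limma test called 0 of 39 members in males, against 2.85% of all genes, and 1 of 39 in females (Homer2), against 2.93%. Over both sexes it called 1 member (Kalrn), against 4.72%, and for the interaction 0, against 2.10%. Without PFC1 Homer2 was called in females (2.26% of all genes), no member over both sexes (3.49%) and none for the interaction (1.93%). Kalrn and Homer2 are therefore given as values and not as changes. MO and SAL overlapped for all 39 members in each sex, and over all genes 0.0600% in males and 0.132% in females did not overlap.

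Member differences were small in size. In males the median log2 fold change of MO against SAL was -0.01 (-0.0002 over all genes), with a range of -0.10 to 0.05 and 9 of 39 members above 0, against 49.9% of all genes. This count rested on single libraries. It was 25 without PFC15 (median 0.01), 19 without PFC19, 17 without PFC12, 16 without PFC14, 5 without PFC10 and 4 without PFC11. In females the median was -0.06 (0.0018 over all genes), with 11 of 39 above 0, against 50.5%. Without PFC1 the female median was 0.00 and 20 of 39 members were above 0, against 52.0%. Scaling libraries to Gapdh and Ppia moved all genes together, by a median of 0.09 in females and -0.03 in males. The female member median was then 0.03 with 26 of 39 above 0, against a median of 0.09 and 75.6% above 0 over all genes, and the male member median was -0.04 with 3 of 39 above 0, against -0.03 and 37.6%. Member medians were below those of all genes under both scalings, but 1 factor per library moves all genes nearly alike. Scaling could therefore not change this gap and is no check of it. The gap rested on single libraries. Without PFC15 the male member median was 0.012, against 0.001 over all genes. Without PFC1 the female member median was 0.0024, against 0.0042. Recomputed median-of-ratios factors gave the same medians and counts as the deposited normalization. The deposited values were already scaled in this way within each sex, so this sameness is no separate check.

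The intervals limit how large a difference these libraries could hold. The 95% interval lay within 0.5 of 0 on the log2 scale for 39 of 39 members in males and for 38 of 39 in females, the exception being Homer3, and within 0.25 for 37 and 12. Leaving out PFC1 raised the latter count in females from 12 to 30. Standard errors had a median of 0.055 in males and 0.097 in females, below the medians of 0.087 and 0.121 over all genes. Most of those genes were at lower levels than the median member. Against genes at or above the level of the lowest member, members had higher median SDs of log2 values in females. These were 0.138 against 0.123 in SAL and 0.215 against 0.177 in MO. The smallest p that an exact permutation test of 6 against 6 libraries can give is 0.00216.

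**Figure D2:**
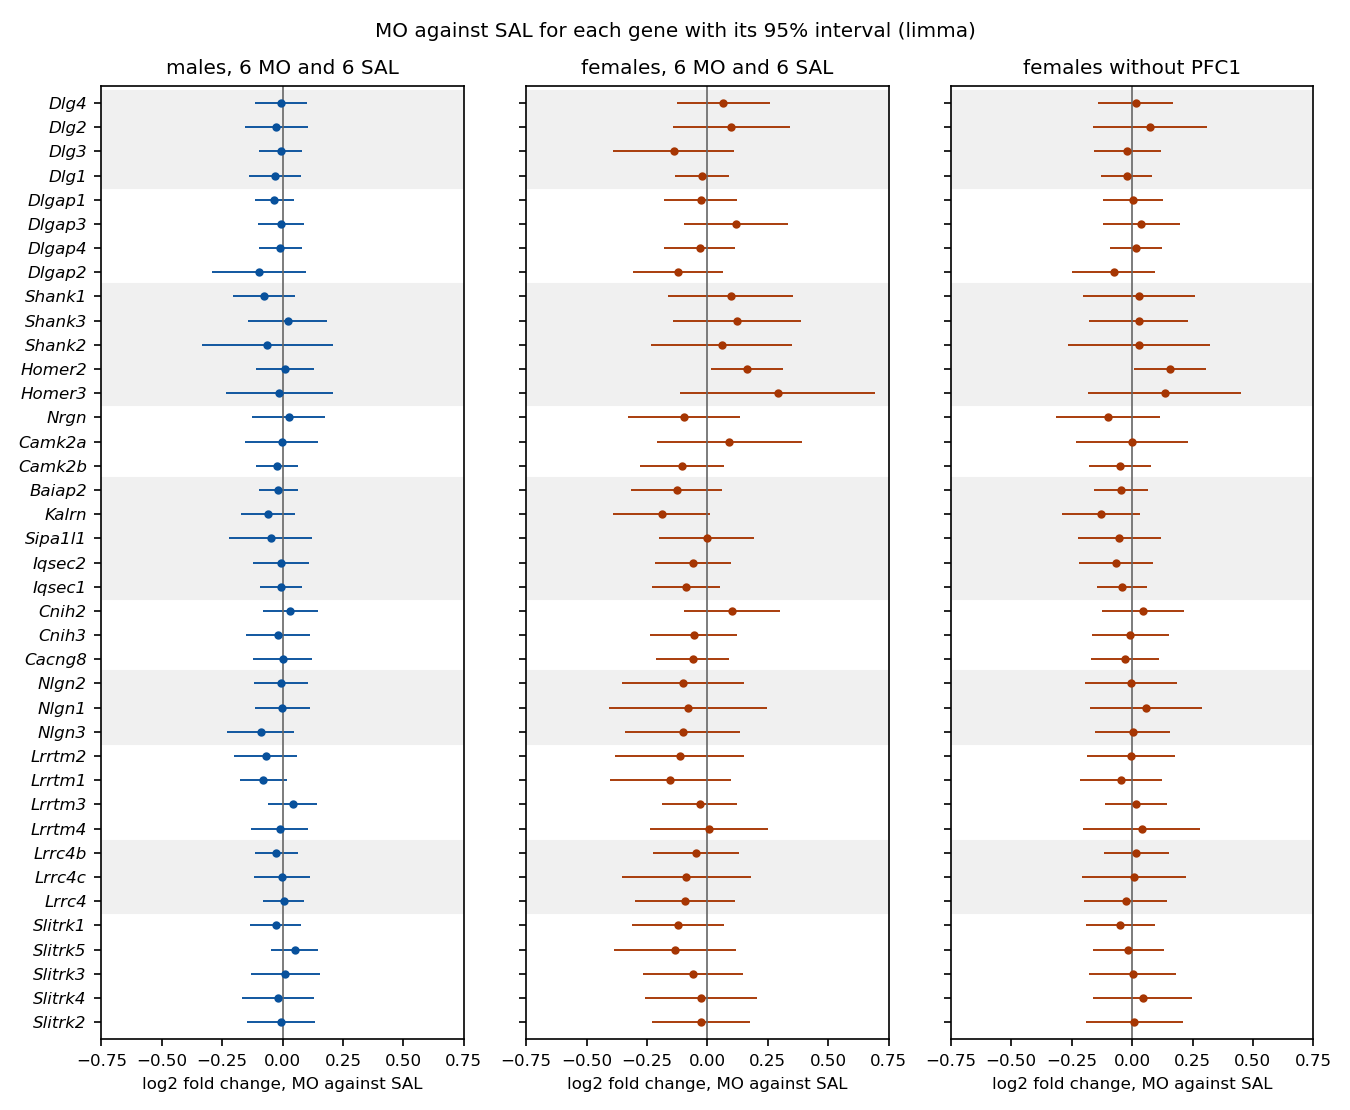
Log2 fold change of MO against SAL for the 39 genes by role in males, in females and in females without PFC1 (x axis, log2 units), with points for the limma estimates and bars for 95% intervals. Intervals are narrowest in males, and the intervals that do not hold 0 are those of Homer2 in both female panels.

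Among the MAGUK scaffolds, Dlg4 encodes PSD-95 (chromosome 11, 70017203 to 70045535, mm10). It was also a qPCR target of the study, in RNA of the same samples and normalized to GAPDH and PPIA. There the study reported higher expression in MO offspring as a drug effect over both sexes. The Dlg4 values here are in the deposited normalization, so they are not on the same scale as the qPCR result. Scaling to Gapdh and Ppia moved the median of all genes by 0.09 in females, -0.03 in males and 0.03 over both sexes. Its lowest, median and highest values were 14639.9, 15325 and 16951 in male SAL, 13568, 15693 and 16872 in male MO, 14480.2, 15728 and 16764 in female SAL and 14073, 15999.7 and 19481 in female MO. Both sexes overlapped, and the highest female MO value was that of PFC1. The log2 fold change was -0.01 in males (95% interval -0.12 to 0.10, 2-sided exact permutation test, p = 0.918) and 0.07 in females (-0.13 to 0.26, exact permutation p = 0.446). Without PFC1 it was 0.01 (-0.14 to 0.17, exact permutation p = 0.844). Over both sexes it was 0.03 (exact permutation within sex, p = 0.559), and 0.00 without PFC1 (exact permutation within sex, p = 0.928). Of the 4 MAGUK genes, 0 in males and 2 in females were above 0, with medians of -0.02 and 0.02. The female median was 0.00 without PFC1. With Gapdh and Ppia scaling 3 of 4 were above 0 in females (median 0.11), against 75.6% and a median of 0.09 over all genes. In males it was 0 of 4 (median -0.04), against 37.6% and -0.03.

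SAPAP proteins sit between the MAGUKs and Shank. Dlgap1, the most abundant of them per kb, had values of 10292, 10559.8 and 10961 in male SAL and of 9747, 10278 and 11131 in male MO. In females it had 8837, 10143 and 10491 in SAL and 8634, 9619 and 10350.3 in MO. The groups overlapped, with log2 fold changes of -0.03 (-0.12 to 0.05) in males, -0.03 (-0.18 to 0.12) in females and 0.00 (-0.12 to 0.13) in females without PFC1. Dlgap2 was the lower-level member at 868 ± 81.4 in male SAL, 818 ± 138 in male MO, 801 ± 82.1 in female SAL and 738 ± 85.2 in female MO. Its log2 fold change was -0.10 (-0.29 to 0.10, exact permutation p = 0.392) in males and -0.12 (-0.31 to 0.07, exact permutation p = 0.219) in females, and -0.08 without PFC1. Dlgap2 had the lowest male log2 fold change of the 39 members. In the SAPAP group 0 of 4 were above 0 in males and 1 of 4 in females, but 3 of 4 in females without PFC1. With Gapdh and Ppia scaling 3 of 4 were above 0 in females, as were 75.6% of all genes.

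The Shank and Homer scaffolds form the deeper layer of the density. Homer2, which binds group I metabotropic glutamate receptors and Shank (chromosome 7, 81600481 to 81706925), had values in female SAL of 1443, 1442, 1634, 1508, 1606 and 1474 and in female MO of 1742, 1792, 1894, 1704, 1417 and 1686. Of the 6 female MO libraries 5 were above every SAL library, and PFC21, at 1417, was below every SAL library. Homer2 had a log2 fold change of 0.16 in females (standard error 0.07, 95% interval 0.02 to 0.31, limma adjusted p = 0.918, exact permutation p = 0.0346). Without PFC1 it was 0.16 (0.01 to 0.30, limma adjusted p = 1.00, exact permutation p = 0.0649). In males, SAL values ran from 1475 to 1646 and MO values from 1412 to 1836, with a log2 fold change of 0.01 (-0.11 to 0.13, exact permutation p = 0.896). The female minus male difference was 0.16 (-0.03 to 0.34) and did not pass the limma test (unadjusted p = 0.0985, adjusted p = 1.00), and it was 0.15 without PFC1. Across leave-one-out fits the female value ran from 0.13 to 0.22, and its unadjusted p was not under 0.05 without any 1 of PFC2, PFC3, PFC4, PFC5, PFC7 or PFC24.

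Homer3 was the lowest member and the most variable in females. Female SAL values were 71.7 at the lowest, 92.2 at the median and 120.4 at the highest, and female MO values 81.0, 105 and 199.6, the last in PFC1. Of the 6 female MO libraries 4 lay within the SAL range. Its female log2 fold change was 0.29 (-0.11 to 0.69, exact permutation p = 0.212), 0.14 (-0.18 to 0.45) without PFC1 and -0.01 (-0.23 to 0.21) in males. Shank1, the highest Shank per kb, had 6322, 6576 and 6990.3 in male SAL, 5302, 6451 and 7031 in male MO, 5343, 6672 and 7279 in female SAL and 5178, 6899 and 8682 in female MO. Its log2 fold change was -0.08 (-0.21 to 0.05) in males, 0.10 (-0.16 to 0.36) in females and 0.03 without PFC1. All 5 Shank and Homer genes were above 0 in females, with a median of 0.12, against 50.5% of all genes. This held without PFC1 (median 0.03, 52.0% of all genes) and with sample weights (0.09, 51.2%). With Gapdh and Ppia scaling the median was 0.22, against 0.09 and 75.6% above 0 over all genes. In males 2 of 5 were above 0. It was 0 of 5 with Gapdh and Ppia scaling (37.6% of all genes) and 4 of 5 with sample weights (50.6%). These 5 are not independent observations, as Shank2 and Shank3 followed each other across libraries (Pearson's r = 0.88 without PFC1). Among the female libraries not marked combined (2 against 2), Shank1, Shank2 and Shank3 were below 0, at -0.20, -0.35 and -0.12, and Homer2 and Homer3 were at 0.01 and 0.15.

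Nrgn had values of 27134, 33025 and 34724 in male SAL, 29559, 31889.6 and 39219 in male MO, 30754, 32129.7 and 35611 in female SAL and 26334, 29574 and 41444 in female MO. Of the female MO libraries 3 were below every SAL library and 1, PFC21, was above all of them. The log2 fold change was 0.02 (-0.13 to 0.18) in males, -0.10 (-0.33 to 0.14) in females and -0.10 without PFC1. Without PFC21 the female value was -0.18, and without PFC8 it was -0.05. Of the AMPA receptor auxiliary subunits, Cnih2 encodes a cornichon protein that binds the receptor. It had 3652 ± 226 in male SAL, 3734 ± 286 in male MO, 3900.3 ± 467 in female SAL and 4185 ± 499 in female MO. Its ranges overlapped in both sexes, with log2 fold changes of 0.03 (-0.08 to 0.14) and 0.10 (-0.10 to 0.30), and of 0.05 in females without PFC1.

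Kalrn encodes kalirin, a guanine nucleotide exchange factor of dendritic spines (chromosome 16, 33969073 to 34573277). Its values were 7705, 8112 and 8678 in male SAL, 7168, 7575 and 8925 in male MO, 6485, 7563 and 8964 in female SAL and 5402, 6961 and 7433 in female MO. All 6 female MO libraries were below the female SAL mean of 7682, and 4 of 6 male MO libraries were below the male SAL mean of 8097, although the groups overlapped in each sex. Over both sexes the log2 fold change was -0.12 (standard error 0.06, 95% interval -0.24 to -0.01, limma unadjusted p = 0.0338, adjusted p = 0.847, exact permutation within sex, p = 0.0368). Without PFC1 it was -0.09 (-0.19 to 0.00, exact permutation p = 0.0752). Within the sexes it was -0.06 in males (exact permutation p = 0.323), -0.19 in females (exact permutation p = 0.0736) and -0.13 in females without PFC1 (exact permutation p = 0.158). The value over both sexes ran from -0.15 to -0.09 in leave-one-out fits, and its unadjusted p was not under 0.05 without any 1 of PFC1, PFC5, PFC12, PFC13, PFC15, PFC19, PFC22 or PFC24.

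Baiap2, the actin adaptor IRSp53, had 4923 ± 192 in male SAL, 4860.1 ± 174 in male MO, 4703 ± 88.0 in female SAL and 4344 ± 612 in female MO. PFC1 held 3247, and the mean of the 5 other female MO libraries was 4564 ± 327. For Baiap2 the log2 fold change was -0.02 (-0.10 to 0.06) in males, -0.13 (-0.31 to 0.06) in females and -0.05 without PFC1. This group also holds the Arf activators Iqsec1 and Iqsec2 and the Rap regulator Sipa1l1. In it 0 of 5 genes were above 0 in males, in females and in females without PFC1 (medians -0.02, -0.09 and -0.05). Over all genes 49.9%, 50.5% and 52.0% were above 0. With sample weights 2 of 5 were above 0 in males (median -0.01) and 0 of 5 in females (median -0.04), against 50.6% and 51.2% of all genes. With Gapdh and Ppia scaling 3 of 5 were above 0 in females (median 0.00, against 0.09 over all genes).

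The neuroligins bind presynaptic neurexins. Nlgn2, found mainly at inhibitory synapses, was highest per kb, with 5097 ± 278 in male SAL, 5077 ± 398 in male MO, 4624 ± 594 in female SAL and 4339 ± 745 in female MO. Its log2 fold change was -0.01 (-0.12 to 0.10) in males, -0.10 (-0.35 to 0.15) in females and -0.01 without PFC1. Nlgn3 is X-linked and had 1301, 1401 and 1462 in male SAL and 1116, 1297 and 1552 in male MO. In females it had 1153, 1243 and 1499 in SAL and 818, 1260.0 and 1411 in MO, where PFC1 was the lowest. Male MO libraries reached both above and below the SAL range. Log2 fold changes were -0.09 (-0.23 to 0.05, exact permutation p = 0.258) in males and -0.10 (-0.34 to 0.14) in females, and 0.00 in females without PFC1. None of the 3 neuroligins was above 0 in females with all libraries, but 2 of 3 were without PFC1 and 1 of 3 with Gapdh and Ppia scaling, under which 75.6% of all genes were.

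LRRTM proteins also bind neurexins. Lrrtm1 had the smallest male exact p of the 39 genes. Its values were 1007, 1044 and 1149 in male SAL and 941, 987 and 1085 in male MO, and 5 of the 6 male MO libraries lay below every male SAL library. The log2 fold change was -0.08 (-0.18 to 0.02, exact permutation p = 0.0671). In females it had 879.8, 1033 and 1106 in SAL and 617, 949.6 and 1081 in MO, with a log2 fold change of -0.15 (-0.40 to 0.10, exact permutation p = 0.292) and -0.05 (-0.22 to 0.12) without PFC1. Lrrtm2, the highest of the LRRTMs per kb in male SAL, had 2435 ± 293, 2307 ± 96.3, 2219.7 ± 240.2 and 2078 ± 417 in SAL males, MO males, SAL females and MO females, with log2 fold changes of -0.07 (-0.20 to 0.06) in males, -0.12 (-0.38 to 0.15) in females and 0.00 without PFC1. The male value was -0.01 without the male SAL library PFC16, which was the highest at 3007. Lrrtm3 was at 1013 ± 70.3, 1040.3 ± 25.1, 969 ± 58.9 and 949.7 ± 93.1 in the same order. Its log2 fold change of 0.04 (-0.06 to 0.14) in males was the second highest of the members, and in females it was -0.03 (-0.19 to 0.12), and 0.02 (-0.11 to 0.15) without PFC1.

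Netrin-G ligands (NGLs) and Slitrk proteins bind netrin-G and receptor tyrosine phosphatases across the synaptic cleft. Lrrc4b, the NGL with the highest level per kb, had 2865 ± 130.3 in male SAL, 2815 ± 136 in male MO, 2641 ± 161 in female SAL and 2571 ± 326 in female MO. Its log2 fold change was -0.03 (-0.12 to 0.07) in males, -0.05 (-0.22 to 0.13) in females and 0.02 without PFC1. Slitrk1 led its family per kb in male SAL. Its values were 1888 ± 103, 1851 ± 121, 1702 ± 152 and 1569.9 ± 200.1 in the same order of groups, with log2 fold changes of -0.03 (-0.13 to 0.08), -0.12 (-0.31 to 0.07) and, without PFC1, -0.05. Slitrk5 had the highest male log2 fold change of the members. Its values were 1558, 1621 and 1688 in male SAL and 1485, 1716 and 1800.3 in male MO, so that 4 male MO libraries were above every SAL library and 1 was below. The log2 fold change was 0.05 (-0.05 to 0.15, exact permutation p = 0.294) in males and -0.13 (-0.39 to 0.12) in females, and -0.02 in females without PFC1. Of the 3 NGL and 5 Slitrk genes 0 were above 0 in females with all libraries, and 2 of 3 and 3 of 5 without PFC1. With Gapdh and Ppia scaling it was 2 of 3 and 3 of 5, beside 75.6% of all genes.

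**Figure D3:**
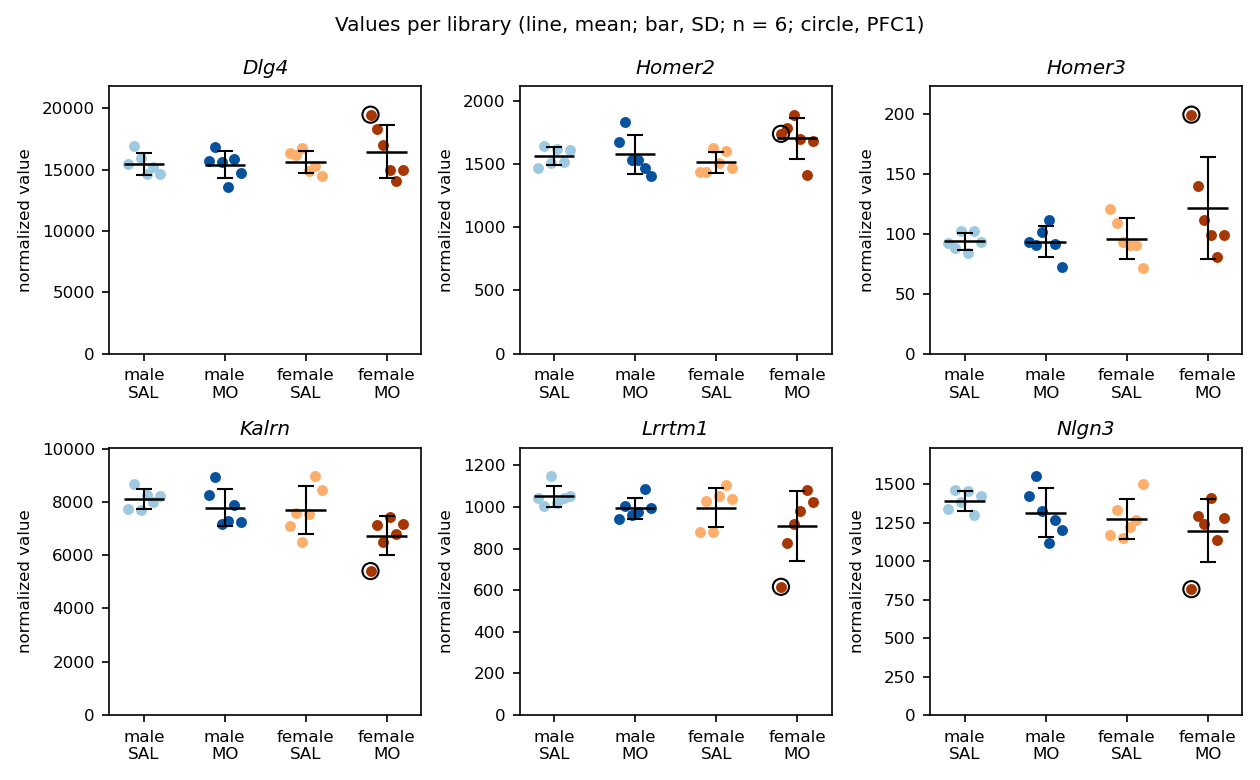
Normalized counts (y axis) of Dlg4, Homer2, Homer3, Kalrn, Lrrtm1 and Nlgn3 in each of the 24 libraries, with points for libraries, lines for the means and bars for the SDs of the 6 libraries in each combination of sex and treatment, and PFC1 circled. PFC1 is the highest female MO library for Dlg4 and Homer3 and the lowest for Kalrn, Lrrtm1 and Nlgn3, and MO and SAL overlap in every panel.

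Much of the spread in females was that of PFC1. Over the 39 genes, its median log2 deviation from the female SAL mean was -0.28, against 0.03 over all genes, and 11 of 39 were above that mean. It was the lowest of the 12 female libraries for 23 members, against 28.5% of all genes, and the highest for 8, against 26.8%. The 23 included all 3 neuroligins, all 3 NGLs, Lrrtm1, Lrrtm2, Lrrtm3, Slitrk1, Slitrk3, Slitrk4 and Slitrk5. Nlgn1 was at 1064 in PFC1 against a female SAL mean of 1821, a log2 difference of -0.76, and Dlg3 and Slitrk5 differed by -0.73 and -0.72. In the other direction PFC1 was highest for Camk2a, Cnih2, Dlg4, Dlgap3, Homer3, Shank1, Shank3 and Sipa1l1. Shank3 was at 4455 against 2927 (log2 difference 0.61), Camk2a at 64546 against 44309.7 (0.55) and Homer3 at 199.6 against 96.1 (1.07). In all, 9 members were more than 0.5 lower and 4 more than 0.5 higher on the log2 scale. Without this library 11 of 39 members took the other sign in the female comparison, against 20.3% of all genes, and 33 moved nearer to 0, against 64.7%.

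**Figure D4:**
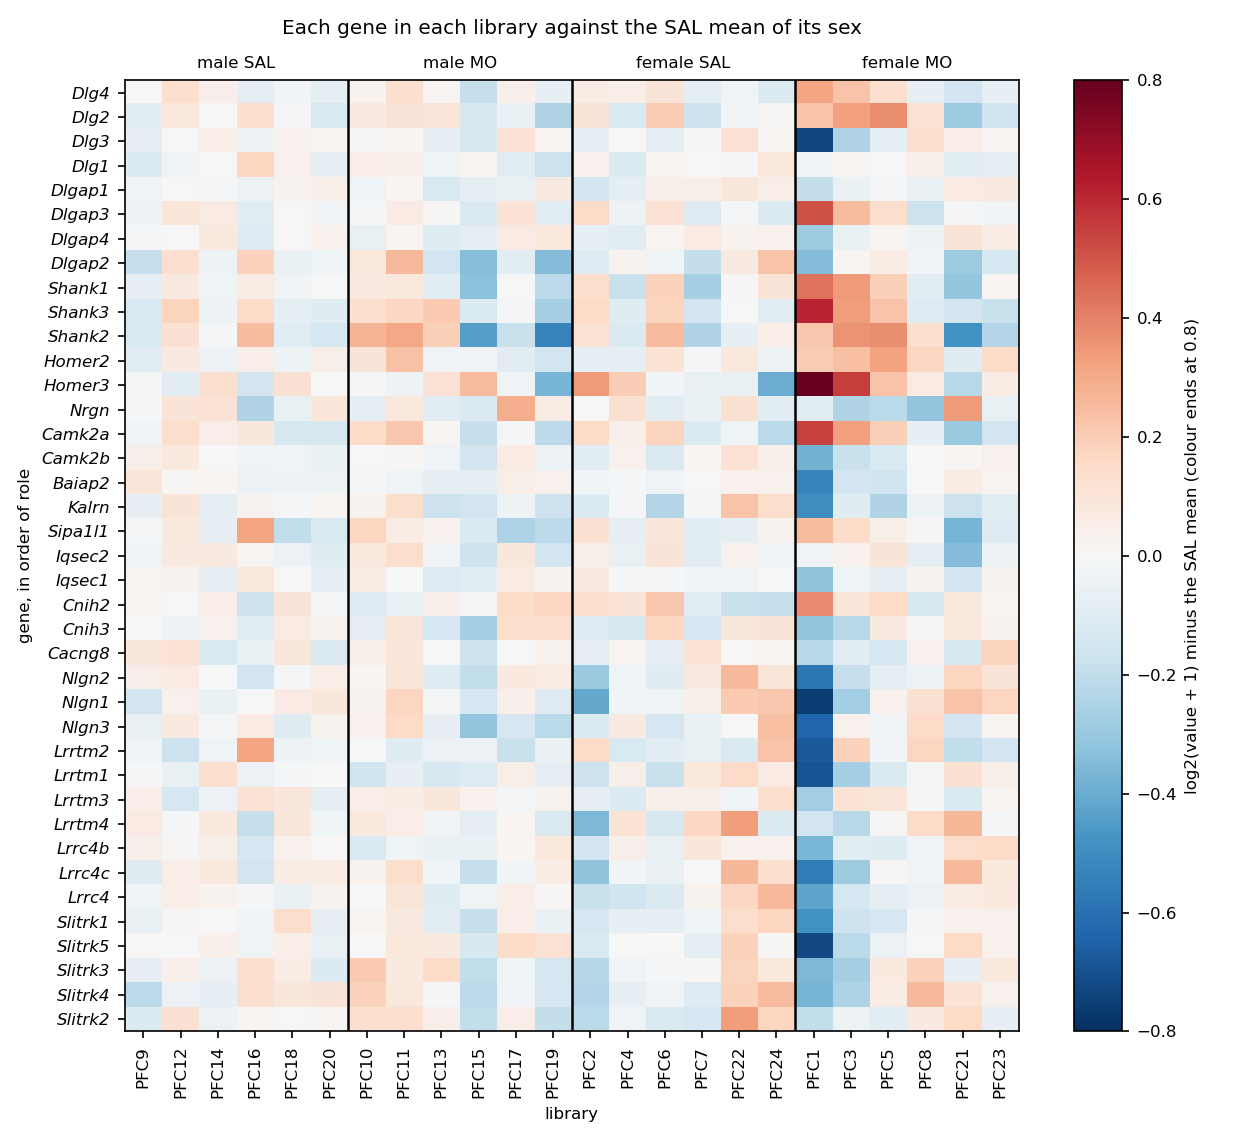
Heat map of the log2 deviation of each of the 39 genes (rows, by role) in each of the 24 libraries (columns, by group) from the SAL mean of the same sex, with colours ending at 0.8 in either direction. The PFC1 column is low for the adhesion genes and high for Homer3, Shank3 and Camk2a, and it has a median of -0.28.

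Markers of other cells moved with PFC1. In this library the summed markers were the highest of the female libraries for mature oligodendrocytes (8 of 8 genes tested, 300997), astrocytes (113397, against 58522 to 73661 in female SAL), microglia (11627, against 4496 to 8613), striatal projection neurons (9709, against 3549 to 4624) and blood (18869, against 2833 to 10584). They were the lowest for pan-neuronal genes (94845, against 120239 to 130084) and interneurons (11199, against 13912 to 17344). In bulk tissue fewer cells of a type and less RNA per cell cannot be told apart. In female MO against SAL all 8 oligodendrocyte markers were above 0 with a median log2 fold change of 0.32, and 4 of 8 were without PFC1, with a median of 0.00. All 8 astrocyte markers were above 0 with a median of 0.22, and the median was 0.08 without PFC1. The glutamatergic markers had a median of -0.12, with 1 of 9 above 0, and of -0.03 without PFC1. All 6 endothelial markers were above 0, with a median of 0.17, and of 0.10 without PFC1.

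In males the oligodendrocyte markers summed to 45730 to 78979 in SAL and to 38863 to 137441 in MO. All 8 had a log2 fold change above 0, with a median of 0.23 and none at an unadjusted p under 0.05. The 6 meningeal fibroblast markers summed to 1949 to 3435 in SAL and to 1197 to 2259 in MO, with 0 of 6 above 0 and a median of -0.33. Of the 6, 3 (Col1a1, Dcn and Col1a2) had an unadjusted limma p under 0.05, against 2.85% of all genes, and 0 passed after adjustment. The sums were high in the SAL libraries PFC12 (3435) and PFC14 (3238) and low in the MO library PFC19 (1197). The male library with the highest oligodendrocyte sum, PFC15, had the lowest member median of the male libraries, at -0.13. In it 3 of 39 members were above the male SAL mean, and it was the lowest male library for 17 members, against 9.86% of all genes. PFC11 held the lowest oligodendrocyte sum and the highest member median of the male libraries, at 0.08. It was the highest library for 13 members, against 7.93%. In females, PFC3 had the second highest oligodendrocyte sum of 171320 with a member median of -0.05. PFC22 had the lowest oligodendrocyte sum of 30843 with a member median of 0.03. Other libraries did not follow this order. In males PFC19 had the second lowest member median, at -0.08, with an oligodendrocyte sum of 54277, and PFC10 had 0.03 with 77448. In females PFC2 had a member median of -0.07, below that of PFC3, with a lower oligodendrocyte sum of 136143. The part of these cell type markers in the members' differences was not tested.

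**Figure D5:**
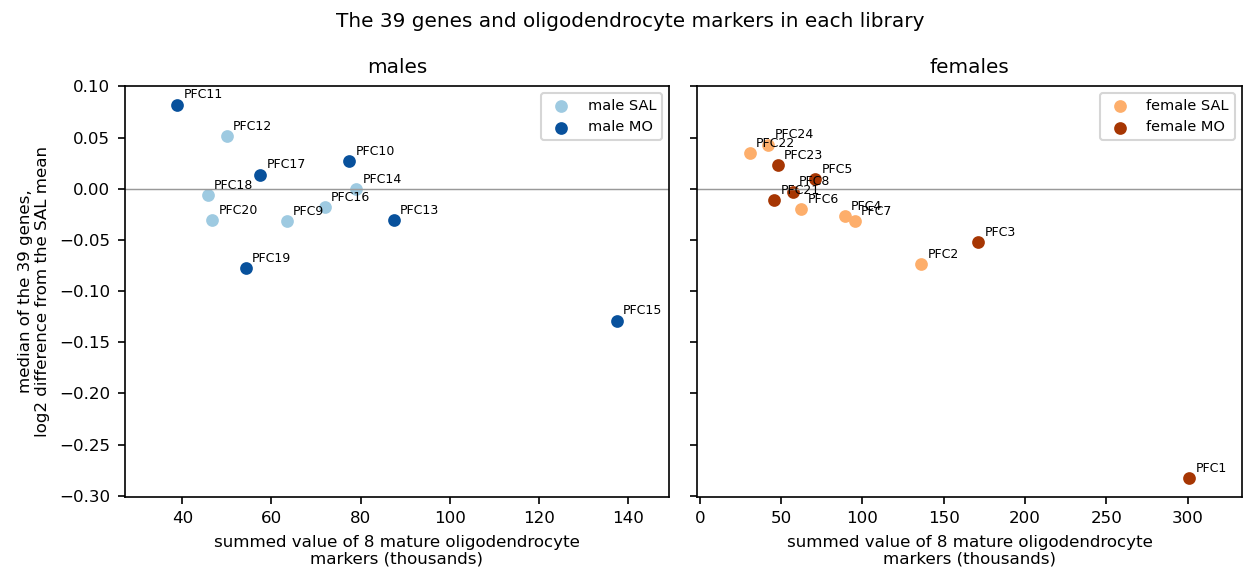
Summed normalized counts of 8 mature oligodendrocyte markers (x axis, divided by 1000) against the median log2 deviation of the 39 genes from the SAL mean of the same sex (y axis), with a point for each library of males and of females. PFC1, at 300997 and -0.28, lies apart from the other female libraries, and PFC15, at 137441 and -0.13, is the lowest point among the males.

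Within the groups, members varied less than the median gene of the table. The median SD of log2 values was 0.080 over members and 0.141 over all genes in male SAL, 0.110 and 0.159 in male MO, 0.138 and 0.173 in female SAL and 0.215 and 0.244 in female MO (0.146 and 0.174 without PFC1). Genes at or above the level of the lowest member had medians of 0.103, 0.114, 0.123 and 0.177 (0.126 without PFC1), so members were above them in both female groups. The most variable genes were Sipa1l1 (0.182) in male SAL, Shank2 (0.373) in male MO and Homer3 (0.254 and 0.457) in female SAL and MO (Shank2, at 0.378, in female MO without PFC1), and the least variable were Dlgap1 (0.034), Lrrtm3 (0.035), Baiap2 (0.027) and Dlg1 (0.051).

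Some members followed each other across libraries. Likeness was taken as Pearson's r between log2 values after the mean of each group was removed, over 24 libraries that share depth and cell content, and it is given as a description without a test. Over the 741 pairs of members the median r was 0.26, and 0.14 without PFC1. There were 242 pairs above 0.5 and 108 below -0.5, and 194 and 67 without PFC1. These counts cover members only, are not set against other genes and are not read as a trait of the members. The pairs named here were chosen after their values were seen, as the 4 highest and 2 lowest r without PFC1. Dlg2, which encodes the MAGUK PSD-93, went with Shank2 (r = 0.94, Spearman's rank correlation = 0.94, r = 0.93 without PFC1, n = 24 and 23) and with Shank3 (r = 0.83, rank correlation = 0.85, r = 0.90 without PFC1). The lowest and highest libraries of Dlg2 and Shank2 were the same in all 4 groups, PFC20 and PFC16, PFC19 and PFC11, PFC7 and PFC6, and PFC21 and PFC5, with Shank2 at 1413 and 1845, 1072 and 1932, 1266 and 1783, and 1068 and 1936. Dlg4 went with Camk2a (r = 0.93, rank correlation = 0.90, r = 0.90 without PFC1), and Nlgn2 with Lrrc4c (r = 0.94, rank correlation = 0.84, r = 0.91 without PFC1). In the opposite direction Lrrc4b went against Sipa1l1 (r = -0.80, rank correlation = -0.84, r = -0.80 without PFC1) and against Dlg2 (r = -0.73, rank correlation = -0.84, r = -0.84 without PFC1). With the 2 libraries farthest from the median left out (n = 22), these 6 values of r were 0.92, 0.85, 0.89, 0.88, -0.75 and -0.70.

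Of the 24 libraries, 11 are marked combined (4 female MO, 4 female SAL, 2 male MO and 1 male SAL), without a statement of what was joined. Among libraries with this suffix the female member median was -0.04 with 18 of 39 above 0, and without the suffix (2 against 2) -0.05 with 10 above 0. In males it was 0.08 with 30 above 0 with the suffix (2 against 1) and -0.07 with 6 above 0 without it (4 against 5). The first of these male values rests on 1 SAL library, and no direction is read from it. Homer2 in females differed by 0.24 on the log2 scale with the suffix and by 0.01 without. Kalrn differed by -0.13 and -0.32 in females, and by 0.15 and -0.15 in males.

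Other genes of the postsynaptic density were read from a list of 40 further scaffold, kinase and adhesion genes, all of which were tested. In males 0 passed an unadjusted p of 0.05, against 2.85% of all genes, and 8 of 40 were above 0, against 49.9%, with a median of -0.03. In females 0 passed, against 2.93%, and 9 were above 0, against 50.5%, with a median of -0.08. Without PFC1 19 of 40 were above 0 in females, against 52.0%, with a median of -0.01. Over both sexes 1 of 40 passed, against 4.72% of all genes, and it is given as values and not as a change. This was Cyfip2, a subunit of the WAVE complex that controls actin. Its log2 fold change was -0.13 (standard error 0.06, 95% interval -0.25 to -0.01, limma adjusted p = 0.847), and -0.08 without PFC1 (limma adjusted p = 0.998). Of 11 genes of the inhibitory postsynapse, 10 were tested and 0 passed in males (2.85% of all genes) or females (2.93%). Their medians were 0.01 in males, -0.04 in females and 0.01 in females without PFC1.

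By position, 5 of the 39 genes were on the X chromosome (Dlg3, Nlgn3, Iqsec2, Slitrk2 and Slitrk4), or 12.8%, against 4.27% of the 20241 protein-coding genes of the table. The 39 genes lay on 18 chromosomes, and their longest annotated transcripts had a median of 4.97 kb. The 250 bases upstream of the start site, taken from RefSeq for GRCm38, were found for 32 members. Of these, 53.1% held at least 10 CG dinucleotides, against 53.0% of 16207 genes.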

How the data were processed

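RNA of P21 mPFC was sequenced from 24 libraries (directional poly A, single reads). Per the study's methods and the submitters' processing notes, the authors used STAR for alignment (mm10), Salmon for quantification and DESeq2 for normalization. Tool versions were not used here. The deposited values are a signal, normalized counts in 1 table per sex. About 97% of the lowest values lay within 0.1 of 1 step per library. The step was itself fitted to the low values, so this share does not check it independently, and the read totals are approximate. Of values at 50 to 60 steps, 17.4% to 60.9% lay within 0.1 of a whole step. Reads per gene were therefore not recovered, and limma replaced the authors' count test.

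Values were taken as log2(value + 1), and genes with a summed value of at least 10 were kept (16662 in males, 16717 in females, 17303 with the sexes together). SAL and MO were compared by limma 3.58.1 in R 4.3.3 (empirical Bayes with a trend, Benjamini-Hochberg over all genes), with sex as a term over both sexes. Fold changes of low genes are understated on this scale. The models treat the 24 libraries as independent. For named genes, 2-sided exact permutation tests used all 924 relabellings (462 without PFC1, 853776 within sex). Figures used Python 3.11.15 and matplotlib 3.10.9, and the fit was tested on simulated data.

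The members and lists were chosen with earlier results of these data known. Genes named were Dlg4, members with an unadjusted p under 0.05 in any fit, the 2 with the largest fold change in each direction per sex, the highest per kb in each role, and up to 4 of the other postsynaptic and 2 of the inhibitory genes per sex with an unadjusted p under 0.05. Libraries are named as in the labels. Transcript lengths came from GENCODE vM21 transcripts with a RefSeq match. Alternatives were other pseudocounts and filters, Gapdh and Ppia scaling, recomputed factors, sample weights, a suffix term and leaving out each library.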

Additional observations from a re-analysis of the deposited data

Results flagged for a closer look

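In 7 of 156 sets of 6 libraries (39 genes in 4 groups), the highest or lowest library lay farther from the others than Dixon's 95% limit allows, and chance flags about 1 in 20 sets. Of the 7, 3 were in the male SAL library PFC16, with Nlgn2 at 4575 (others 5063 to 5335), Lrrc4b at 2612 (2856 to 2954) and Lrrtm2 at 3007 (2154 to 2369). Its striatal projection neuron markers summed to 8400, against 3406 to 4019 in the other male SAL libraries, and their part in these values was not tested. In male SAL, Lrrtm1 was at 1149 in PFC14 (others 1007 to 1052) and Slitrk1 at 2081 in PFC18 (1804 to 1902). In females, Iqsec1 was at 4606 in the SAL library PFC2 (4291 to 4379), and Nrgn at 41444 in the MO library PFC21 (26334 to 31387). The median log2 deviation of the 39 genes from the SAL mean stood apart in the female MO library PFC1, at -0.28, and in the male SAL library PFC12, at 0.0511.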

How the results depend on the processing

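The count of members at an adjusted p under 0.05 was 0 under every alternative run. Counts at an unadjusted p under 0.05 moved. In females the count was 2 with a term for the suffix, beside 631 of 16717 genes. Over both sexes it was 0 with Gapdh and Ppia scaling (699 of 17303 genes) and 0 with sample weights (777 of 17303). The member median was 0.0339 in females and 0.0939 for the interaction with Gapdh and Ppia scaling, which gave 0.0908 and 0.111 over all genes. Leaving out each library in turn gave 0 to 2 members in males. It was 2 without PFC11 (685 of 16580 genes) and 1 without PFC17 (431 of 16585). In females it gave 0 to 2, with 2 without PFC6 (521 of 16631 genes) or PFC8 (842 of 16654). Over both sexes it gave 0 to 3. It was 2 without PFC11 (1000 of 17274 genes), PFC17 (851 of 17264) or PFC23 (953 of 17274), and 3 without PFC21 (916 of 17254). Homer2 took the place of Kalrn without PFC19. For the interaction it gave 0 to 1, with Homer2 without PFC11 (400 of 17274 genes) or PFC21 (665 of 17254). The causes were not tested. Of 1872 values for single genes under other settings, 1842 kept their side of the unadjusted threshold, 16 lost and 14 gained it, and 97 took the other sign, none of them with an unadjusted p under 0.05 in either fit. No paired analysis was possible because the labels give no replicate numbers shared between the groups. Reads per gene were not recovered, so counting error could not be computed, and litters shared by the sexes could not be entered in the fits.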
